A study of Mus musculus with 2 samples.

Results

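Interferon-stimulated neutrophils of 4T1 tumors were examined as the neutrophils whose RNA held a large share of 6 interferon-induced transcripts, Isg15, Rsad2, Ifit1, Ifit3, Cmpk2 and Usp18. They numbered 258 of the 2298 neutrophils and of the 5187 retained cells in 2 droplet libraries of GR1+ cells. 4T1 is a transplantable mammary carcinoma line of BALB/c mice. One library came from untreated tumors of the parental line, which does not respond to anti-PD1 (4T1P). The other came from untreated tumors of the mutagenized line that does respond (4T1M), a pool of mutated cells grown in the same host. By the sample records, mice were 6 to 8 weeks old and cells of 5 mice went into each library. The paper gives another age and a smaller pool. GR1+ cells were taken by magnetic positive isolation. The GR1 epitope is shared by Ly6G and Ly6C, and the isolate also held macrophages and other cells.

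Barcodes were retained where 500 to 5000 genes were detected and mitochondrial transcripts held no more than 10% of the UMIs (unique molecular identifiers, which count single RNA molecules). A cell was called a neutrophil where S100a8 and S100a9 held at least 1.5% of its UMIs and C1qa, C1qb, C1qc and Apoe less than 0.5%. Interferon-stimulated neutrophils were then chosen by their own counts: the 6 interferon genes held at least 0.6% of UMIs and the granule genes Camp, Ngp and Ltf less than 1%. The levels of those genes are therefore descriptions, and comparisons were made on genes outside the gate. With 1 pooled library per condition there was no replicate, no test was run, and all intervals are 95% intervals for counting error only.

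Interferons are secreted proteins that act through surface receptors, JAK kinases and STAT transcription factors. Type I interferons (interferon α and β) act mainly through a complex with STAT2 and IRF9 that binds the interferon-stimulated response element, whereas interferon γ acts mainly through the gamma-activated sequence. The genes switched on in this way encode RNA sensors, antiviral effectors, GTPases and antigen-presentation proteins, and neutrophils with such a program have been described in blood and in tumors.

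To show the sequence context of these genes, stretches upstream of the RefSeq transcription start are given 5′ to 3′ on the strand of the gene (GRCm38.p6), with each match to a core form of the interferon-stimulated response element in capitals. The letters searched, on either strand, were GAAA, then 2 bases of any kind, then GAAA, which read TTTC, 2 bases and TTTC where the match lies on the opposite strand. Isg15, Rsad2 and Ifit1 belong to the gate and the other genes do not.
Isg15, chr4:156200857-156200926, minus strand: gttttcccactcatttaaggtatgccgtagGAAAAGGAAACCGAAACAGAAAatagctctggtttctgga
Rsad2, chr12:26456533-26456602, minus strand: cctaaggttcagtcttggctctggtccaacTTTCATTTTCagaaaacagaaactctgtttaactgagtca
Ifit1, chr19:34640755-34640824, plus strand: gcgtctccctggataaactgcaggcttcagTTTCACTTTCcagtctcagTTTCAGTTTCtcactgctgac
Slfn5, chr11:82951917-82951986, plus strand: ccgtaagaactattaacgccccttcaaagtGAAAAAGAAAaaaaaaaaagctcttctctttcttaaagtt
Ddx60, chr8:61928004-61928073, plus strand: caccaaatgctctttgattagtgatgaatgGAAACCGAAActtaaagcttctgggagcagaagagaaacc
Gbp2, chr3:142620574-142620643, plus strand: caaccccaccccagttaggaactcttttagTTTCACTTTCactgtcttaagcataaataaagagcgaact
Cxcl10, chr5:92349063-92349132, minus strand: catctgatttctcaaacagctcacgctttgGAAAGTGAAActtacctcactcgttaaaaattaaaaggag
In the Isg15 stretch there were 3 matches, each overlapping its neighbor, and in that of Ifit1 there were 2 separate matches.

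In 4T1P tumors 54 of 612 neutrophils passed the gate, 8.82% (exact binomial interval 6.70% to 11.4%). In 4T1M tumors 204 of 1686 did, 12.1% (10.6% to 13.8%). The share was higher in 4T1M, with intervals that overlapped at this threshold but not at a threshold of 0.4%, where the shares were 12.9% (10.4% to 15.8%) and 20.2% (18.3% to 22.2%). With the gate read after each cell was thinned to 1000 UMIs they were 9.80% (7.56% to 12.4%) and 15.1% (13.4% to 16.9%). The intervals overlapped at a threshold of 1.0%, 4.25% (2.79% to 6.16%) and 6.05% (4.96% to 7.30%), and with a mitochondrial limit of 5%, S100a8 and S100a9 of at least 3%, or without the deepest 5% of neutrophils. As shares of all retained cells they were 3.13% (2.36% to 4.06%) and 5.89% (5.13% to 6.73%), beside neutrophil shares of 35.5% and 48.7% in the same libraries. All of these shares are shares of a GR1 isolate. Among the 64 granule-rich neutrophils that the gate set aside, 18 in 4T1P and 46 in 4T1M, none reached 0.6%, whereas 5 of 646 macrophage-gated cells did in 4T1P (0.774%) and 31 of 814 in 4T1M (3.81%). Of T or NK cells, 0 of 73 and 1 of 95 did. The libraries had 5 cell barcodes in common, none of them a neutrophil in both and 1 of them an interferon-stimulated neutrophil in one library.

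The gate score, the percentage of a cell's UMIs held by the 6 genes, had no gap at the threshold. Its median was 0.961% in interferon-stimulated cells of 4T1P and 0.999% in those of 4T1M, and 0.0390% and 0.0780% in the other neutrophils. Just outside the threshold, at 0.5% to 0.6%, lay 10 cells of 4T1P and 53 of 4T1M, and just inside, at 0.6% to 0.7%, lay 7 and 40. The last cell left out scored 0.599% in both libraries, and the first taken in scored 0.604% and 0.601%. The cells are therefore the upper end of a continuous range, cut at a chosen value.

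**Figure D1:**
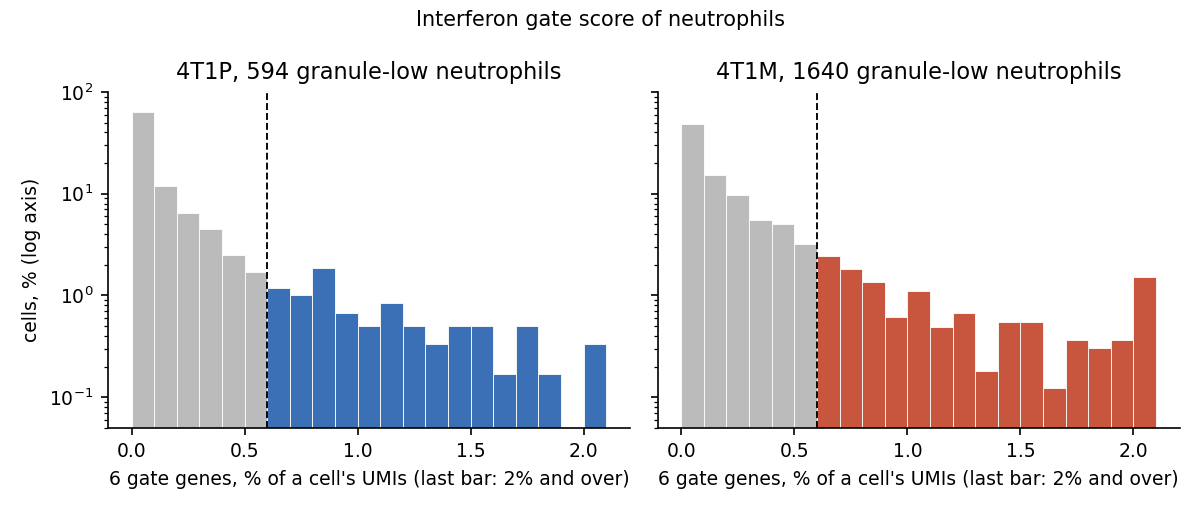
Gate score of granule-low neutrophils in each library: the x axis gives the 6 gate genes as a percentage of a cell's UMIs, in bars of 0.1 with all cells of 2% and over in the last bar, and the y axis the percentage of cells on a log axis. Colored bars to the right of the dashed line at 0.6% are interferon-stimulated neutrophils; the shares fall off across the line without a gap.

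Isg15, a ubiquitin-like protein that is attached to other proteins, and Rsad2 (viperin), an antiviral enzyme, made up most of the gate. Isg15 held 56.6% of the gate UMIs in 4T1P and 49.6% in 4T1M, and Rsad2 31.9% and 35.0%. UMIs of at least 4 of the 6 genes were found in 30 of 54 cells (55.6%) and 118 of 204 cells (57.8%), and UMIs of 1 gene alone in 3 and 6 cells. The median cell carried 32 gate UMIs in 4T1P, with a range of 14 to 118, and 31.5 in 4T1M, with a range of 7 to 162. When each gate gene was left out in turn and cells were chosen on the other 5, with the threshold lowered in proportion, the omitted gene remained higher in the chosen cells of both libraries. Isg15 was then 6.66-fold higher in 4T1P and 4.78-fold in 4T1M, Rsad2 16.0-fold and 8.27-fold, and Ifit1, which binds viral RNA, 20.7-fold and 11.5-fold. Usp18, the protease that removes Isg15 and dampens interferon signaling, was 19.5-fold and 8.17-fold higher. Without Isg15, 36 of the 54 and 158 of the 204 cells were chosen again.

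Median depth was nearly equal inside and outside the gate. Interferon-stimulated cells had a median of 3100 UMIs and 947.5 genes in 4T1P and of 2813 UMIs and 882.5 genes in 4T1M, against 3045 and 2978 UMIs in the other neutrophils. Their summed UMIs were 184682 and 665837, against 2318265 and 5914168 for the other neutrophils, so that the 4T1P values carry the wider intervals. Granule-rich neutrophils had medians of 16632 and 12576.5 UMIs and so weighed heavily in the sums of the other neutrophils. Ratios were therefore also taken against the granule-low neutrophils alone (540 and 1436 cells), and are given for the genes described in most detail. Levels below are CPM, the UMIs of a gene as a share of all UMIs of the summed cells, scaled to 1000000.

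The 3 markers named for this state that the gate did not use were all higher. Slfn5, a Schlafen protein that modulates interferon-driven transcription (chromosome 11, 82951349 to 82964840, plus strand, GENCODE M21), had 650 CPM in interferon-stimulated cells of 4T1P against 36.2 CPM in the other neutrophils. In 4T1M it had 910 CPM against 152 CPM. The log2 ratios were 4.16 (3.75 to 4.58) and 2.59 (2.44 to 2.74). Isg20, an RNA exonuclease (chromosome 7, 78913424 to 78920396, plus strand), had 563 against 91.0 CPM and 664 against 120 CPM, log2 ratios of 2.63 (2.28 to 2.97) and 2.47 (2.29 to 2.64). Ddx60, a helicase that promotes RNA sensing (chromosome 8, 61928087 to 62038244, plus strand), had 493 against 44.4 CPM and 455 against 95.5 CPM, log2 ratios of 3.47 (3.05 to 3.89) and 2.25 (2.05 to 2.46). Against granule-low neutrophils the ratios were 3.95 and 2.45 for Slfn5, 2.45 and 2.34 for Isg20, and 3.29 and 2.13 for Ddx60. None of the member and comparison intervals overlapped.

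Genes of neutrophil identity were present in these cells. The G-CSF receptor Csf3r had 780 CPM against 706 CPM in 4T1P and 969 against 832 CPM in 4T1M, and the chemokine receptor Cxcr2 363 against 322 CPM and 430 against 371 CPM. The decoy receptor Il1r2 and the activating receptor Trem1 had log2 ratios between 0.19 and 0.42. Of 18 identity genes counted outside the gate, 9 had ratios above 0 in 4T1P and 10 in 4T1M. Among them 0 were called higher and 3 lower, Ly6g, Lcn2 and Retnlg. Identity genes outside the rules summed to 27864 CPM against 36707 CPM in the other neutrophils of 4T1P. In 4T1M the sums were 27627 and 31451 CPM.

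Markers of other cell types were read as whole lists. Of 17 macrophage and monocyte markers, those that the neutrophil rule did not use summed to 3801 CPM in interferon-stimulated cells and 3393 CPM in the other neutrophils of 4T1P, and to 3295 and 3416 CPM in 4T1M. The neutrophil rule itself capped the rest of that list in both classes. Cd14 was the most abundant gene of that list in all 4, 16 and 17 of the genes had a UMI in interferon-stimulated cells, and Vcan was at 0 in 4T1P. In interferon-stimulated cells Cd14 held 649 of the 769 UMIs of the full list in 4T1P and 1998 of 2447 in 4T1M. Median log2 ratios of the 5 genes counted from this list were -0.30 and -0.48. Of 10 dendritic cell markers only Bst2, itself interferon-induced, had UMIs (14 in 4T1P and 81 in 4T1M), with Flt3, Siglech, Xcr1, Clec9a and Ccr7 at 0. Of 11 T and NK markers only Cd3d was found, with 1 and 3 UMIs. Ighm led the 7 B cell markers with 1 and 13 UMIs, and Cd79a and Ms4a1 were at 0. The 7 tumor cell markers summed to 21.7 and 19.5 CPM, against 81.5 and 14.5 CPM in the other neutrophils. The 10 proliferation genes summed to 70.4 and 31.5 CPM, on 13 and 21 UMIs, against 88.9 and 101 CPM in all other neutrophils and 34.0 and 53.7 CPM in granule-low ones, so that the direction in 4T1P turned with the comparison. The part of RNA from other cells in the levels below was not tested.

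Outside the rule genes, 3636 genes had at least 50 UMIs in the neutrophils of each library. A gene was called where it differed at least 2-fold in the same direction in both libraries. On this rule 76 genes were higher in interferon-stimulated neutrophils (2.09% of genes) and 143 were lower (3.93%). Against granule-low neutrophils alone, 70 were higher (1.93%) and 88 lower (2.42%), with 67 and 82 genes called in both comparisons. Intervals of both libraries lay above 0 for 75 of the 76 higher genes. The gene lists, which held no more than 224 of the 3636 counted genes, included 45 of the 76. Of the 143 lower genes, intervals of both libraries lay below 0 for 74 alone, and 117 had at most 5 UMIs in the interferon-stimulated cells of 4T1P, so that many lower calls cannot be told from no change at this depth. The minimum of 50 UMIs included the gated cells. For 13 of the 76 higher genes it was reached in a library only with their UMIs, which favors a higher call, and in the lists these were Ifit2, Ifit1bl2, Xaf1, Tor3a, Ifi35, Oas2, Stat2, Slfn8 and Daxx. The median log2 ratio of all genes was -0.09 in 4T1P and -0.16 in 4T1M. Scaling by DESeq2 size factors gave 93 genes higher and 100 lower. Without the deepest 5% of neutrophils 67 were higher and 33 lower, and with each cell weighted equally 77 and 91.

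**Figure D2:**
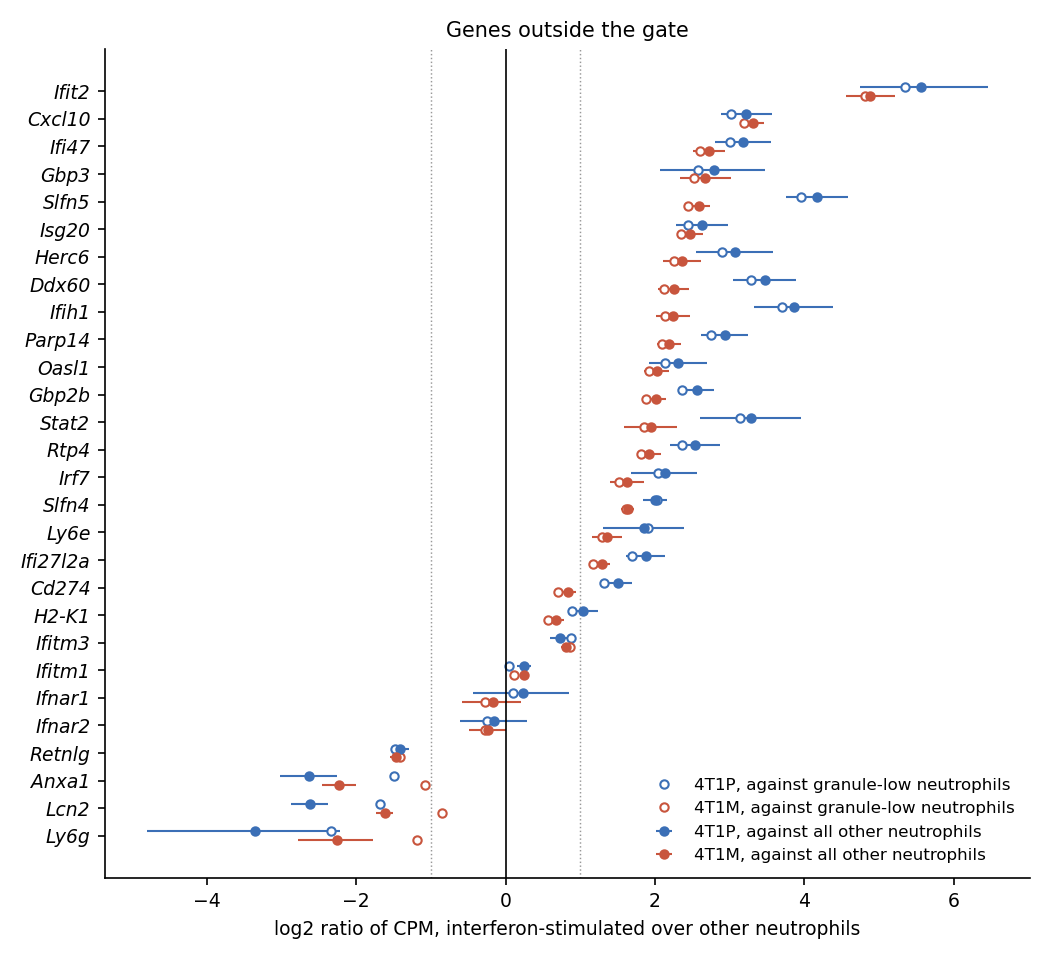
Log2 ratio of CPM in interferon-stimulated over other neutrophils for named genes outside the gate, with 4T1P in blue and 4T1M in red. Filled points with 95% counting intervals are against all other neutrophils, open points against granule-low neutrophils, and dotted lines mark 2-fold; interferon-induced genes from Ifit2 to Ifi27l2a lie beyond 2-fold on the right, and Anxa1, Lcn2 and Ly6g shift toward 0 against granule-low cells.

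Of the antiviral effectors 14 were counted. Of these, 11 were called higher and 0 lower, with median log2 ratios of 2.37 in 4T1P and 1.80 in 4T1M. The count and medians include 5 genes that reached the minimum only with the gated cells, all called higher: Ifit2, Ifit1bl2, Xaf1, Tor3a and Ifi35. Ifit2, which binds viral RNA as Ifit1 does (chromosome 19, 34550694 to 34576419, plus strand), had 325 CPM in interferon-stimulated cells of 4T1P and 502 CPM in those of 4T1M, against 6.90 and 17.1 CPM in the other neutrophils. Its log2 ratios were 5.56 (4.74 to 6.45) and 4.88 (4.55 to 5.21), and 5.35 and 4.81 against granule-low cells. These cells held 78.9% and 76.8% of all Ifit2 UMIs of neutrophils, beside 7.38% and 10.1% of all UMIs. Ifit1bl2, Rtp4, Xaf1, Trim30a, Tor3a, Ifi35 and Sp100 were called higher too. Samhd1, which depletes nucleotides, had 661 and 685 CPM against 355 and 343 CPM, and Bst2 (tetherin) had log2 ratios of 0.81 and 1.39, and neither was called. Ifi27l2a had 839 and 1371 CPM against 228 and 562 CPM.

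Sensors and enzymes of RNA recognition followed. Among 7 sensors counted, Ifih1 (MDA5), Ddx58 (RIG-I), Ddx60 and Zbp1 were called higher, with a list median of 2.31 and 1.51. Ifih1 had 368 and 372 CPM, against 25.5 and 78.5 CPM in the other neutrophils. Of 5 genes counted in the oligoadenylate synthetase list, whose enzymes answer double-stranded RNA, Oas2, Oas3, Oasl1 and Oasl2 were called higher. Herc6, a ligase that attaches Isg15, was the single gene of the Isg15 conjugation list with enough UMIs outside the gate. It had 298 and 314 CPM against 35.4 and 60.9 CPM. All 4 counted genes of the PARP list, Parp9, Parp10, Parp14 and Dtx3l, were called higher.

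The interferon-inducible GTPases, which attack membranes of intracellular pathogens, were called higher in 8 of 8 cases, with list medians of 2.48 and 1.97. Gbp2b had 1175 and 1047 CPM against 199 and 259 CPM, Gbp2 948 and 855 CPM against 179 and 260 CPM, and Ifi47 563 and 494 CPM against 62.1 and 74.7 CPM. Gbp3, Gbp5, Gbp7, Irgm1 and Igtp made up the rest. Of 5 Schlafen genes, Slfn1, Slfn4, Slfn5 and Slfn8 were called higher, and Slfn2 had log2 ratios of 0.57 and 0.44. Slfn1 was not called against granule-low cells, with a ratio of 0.93 in 4T1M. Slfn4 had 2355 and 2190 CPM against 588 and 704 CPM.

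Among 9 transcription factors and kinases of interferon signaling, Irf7, Irf9 and Stat2 were called higher and 0 lower. Irf7, which amplifies type I interferon output, had 319 CPM in interferon-stimulated cells of 4T1P and 336 CPM in those of 4T1M, against 72.9 and 109 CPM, log2 ratios of 2.13 (1.68 to 2.57) and 1.63 (1.40 to 1.85). Stat2 had log2 ratios of 3.29 and 1.94. Irf9 had 1.49 (0.91 to 2.03) and 1.10 (0.81 to 1.38), and missed 2-fold in 4T1M against granule-low cells. Receptors were not called: the 5 counted had median log2 ratios of -0.15 and -0.23. Ifnar1, a chain of the type I receptor, had 0.24 (-0.43 to 0.85) and -0.17 (-0.58 to 0.21), intervals that hold 0. Of the feedback inhibitors outside the gate, 0 of 5 were called. Socs1 had log2 ratios of 1.38 and 0.82, and Socs3 of 0.98 and 0.16.

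Genes for the interferons themselves were not detected in these cells. None of the 8 ligand genes examined had a UMI in interferon-stimulated neutrophils, which allows up to 16.2 CPM in 4T1P and 4.51 CPM in 4T1M for each. Ifnb1, encoding interferon β, had 555 UMIs in 155 macrophage-gated cells of 4T1P (78.6 CPM) and 490 UMIs in 166 such cells of 4T1M (62.1 CPM). In the other neutrophils it had 3 UMIs in 4T1P and 71 UMIs in 10 cells in 4T1M. Ifng, encoding interferon γ, was found only in T or NK cells, with 24 and 27 UMIs in 10 cells of each library.

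Counted genes of class I antigen presentation were above the other neutrophils, in 4T1M by less than 2-fold for the most part. All 15 counted genes of class I presentation had log2 ratios above 0 in both libraries, with medians of 1.04 and 0.85, but only the immunoproteasome subunit Psmb8 and the peptide transporter Tap1 were called, and neither against granule-low cells in 4T1M. H2-K1 had 1305 and 1398 CPM against 635 and 873 CPM, and B2m 1744 and 2026 CPM against 946 and 1124 CPM. Cd274, which encodes PD-L1, had 1554 CPM in interferon-stimulated cells of 4T1P against 546 CPM, and 1355 CPM in those of 4T1M against 758 CPM. Its log2 ratios were 1.51 (1.32 to 1.70) and 0.84 (0.73 to 0.94), or 1.32 and 0.71 against granule-low cells, above 0 in both and over 2-fold in 4T1P alone. Of 9 checkpoint and costimulatory genes, Il18bp, which binds and blocks interleukin 18, was the one called higher. Il15, a growth factor of T and NK cells, had log2 ratios of 1.08 and 0.96. In the list of genes that lean to interferon γ, 2 of 11 were called, Gbp2 and Gbp5. Of the 11 genes, 7 had ratios above 0 in each library, with list medians of 0.47 and 0.55. The class II genes H2-Aa, H2-Ab1, H2-Eb1 and Cd74 had ratios below 0 in both libraries.

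**Figure D3:**
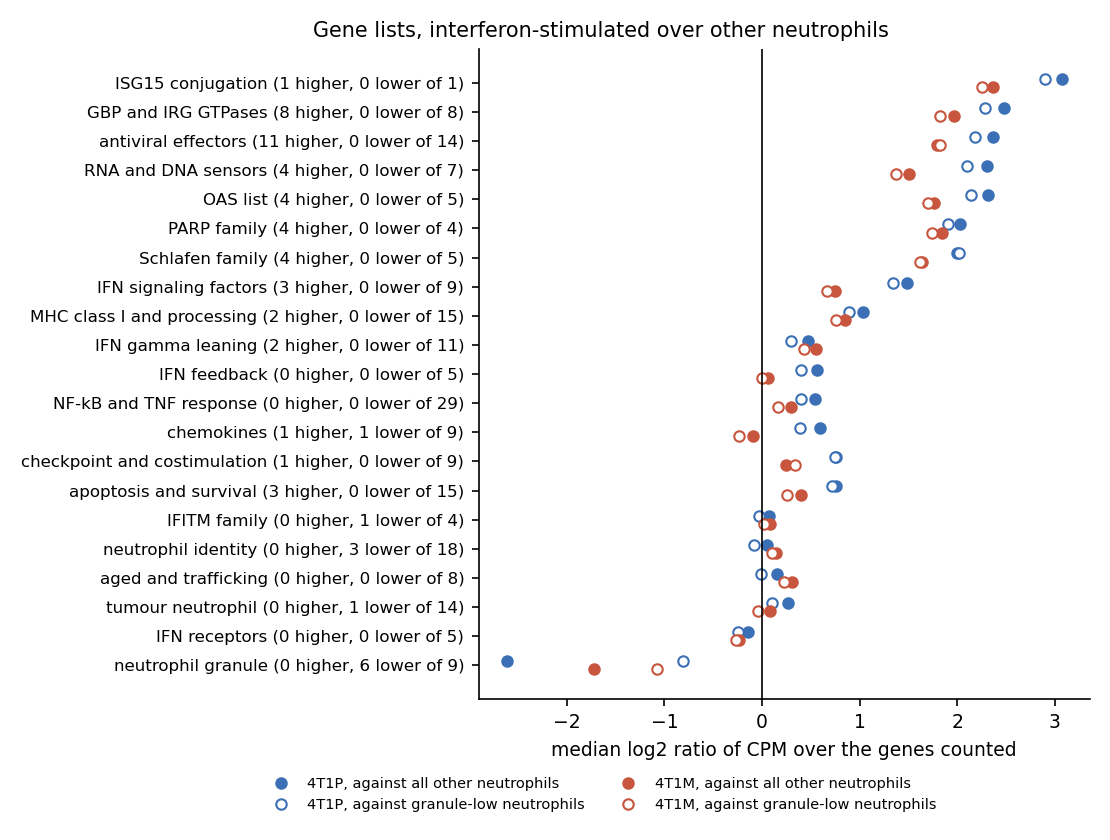
Median log2 ratio of CPM in interferon-stimulated over other neutrophils for each gene list, over its counted genes outside the gate, with 4T1P in blue and 4T1M in red, filled against all other neutrophils and open against granule-low neutrophils. The counts of called genes stand beside each name; sensors, synthetases, effectors, GTPases, PARP and Schlafen genes lie between 1.37 and 2.48, interferon receptors just below 0, and granule genes between -2.62 and -0.81.

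Secreted and surface molecules with other functions gave a mixed picture. Cxcl10, which attracts T cells through CXCR3 (chromosome 5, 92346638 to 92348889, minus strand), had 677 CPM in interferon-stimulated cells of 4T1P and 1128 CPM in those of 4T1M, against 72.5 and 114 CPM, log2 ratios of 3.22 (2.88 to 3.57) and 3.31 (3.16 to 3.46), or 3.01 and 3.19 against granule-low cells. Its UMIs lay in few cells: 11 of 54 and 53 of 204 had any, and 1 cell of 4T1P held 48 of 125 UMIs, without which the level was 426 CPM. In 4T1M 1 cell held 163 of 751 UMIs, and without that cell the level was 887 CPM. Among the other neutrophils of 4T1P, 1 cell held 74 of 168 UMIs, and without these the level was 40.5 CPM. Macrophage-gated cells had 315 and 316 CPM. Ccl9 was called lower on 3 and 21 UMIs. Ccl3, which attracts monocytes and T cells, had log2 ratios of 0.75 and 0.19. None of 29 genes of the NF-kB and TNF response was called in either direction, although 28 of 29 had ratios above 0 in each library, and Il1b, encoding interleukin 1β, had 0.56 and 0.61. Casp8, Daxx and Xaf1 were called higher among 15 genes of cell death and survival.

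Beyond the lists, the higher genes with at least 100 CPM in both libraries included Rnf213, a large ubiquitin ligase, with log2 ratios of 3.46 and 2.15, and Trafd1 and Trim56, regulators of innate signaling. Also among them were Plac8 (866 and 1260 CPM against 336 and 523 CPM), Nampt, which makes the cofactor NAD, and Fcgr4, an activating Fc receptor (276 and 267 CPM against 121 and 122 CPM). Clec2d, Usp25, Sppl2a and Lgals9 passed the same rule, of which Lgals9 missed it against granule-low cells (0.99 in 4T1M). The study also derived an interferon signature from human neutrophils. Of its genes, Ifit2, Xaf1, Parp9, Irf7 and Parp14 were counted here outside the gate and called higher, Ifit2 and Xaf1 among the genes that reached the minimum only with the gated cells. Of 8 genes of neutrophil aging and trafficking, 0 were called, with list medians of 0.15 and 0.31. Gm13822 and 9930111J21Rik2 are annotated genes under provisional names, and their reads could be shared with related loci.

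Ly6e encodes a small surface protein anchored by a lipid that is induced by interferon (chromosome 15, 74955051 to 74959905, plus strand). The study used this protein, read by flow cytometry, as the surface marker of its own interferon-stimulated neutrophils. The cells here were chosen on RNA of other genes, and whether they are the same cells was not tested. Ly6e RNA had 211 CPM (150 to 289) in interferon-stimulated cells of 4T1P and 395 CPM (349 to 446) in those of 4T1M. In the other neutrophils it had 58.2 and 154 CPM. The log2 ratios were 1.86 (1.31 to 2.38) and 1.36 (1.16 to 1.56), and 1.90 and 1.29 against granule-low cells. Of neutrophils with a Ly6e UMI, 17 of 93 in 4T1P (18.3%) and 106 of 498 in 4T1M (21.3%) passed the gate. Conversely, 31.5% and 52.0% of interferon-stimulated cells had a Ly6e UMI. After each cell was thinned to 1000 UMIs the shares were 9.26% (3.08% to 20.3%) and 28.4% (22.4% to 35.2%), against 5.02% and 11.0% of the other neutrophils and 11.0% and 5.32% of T or NK cells. The median depths before thinning were 3100 and 2813 UMIs in interferon-stimulated cells and 5605 and 5556 UMIs in T or NK cells. At this depth the 4T1P share was not distinguishable from that of the other neutrophils (interval 3.36% to 7.17%) or of the T or NK cells. Macrophage-gated cells, with medians of 9189 and 8965 UMIs before thinning, had a Ly6e UMI in 14.4% and 33.2% of cells after it, with intervals that overlapped those of the interferon-stimulated shares, and 167 and 520 CPM of Ly6e. In thinning, 4 other neutrophils and 1 T or NK cell of 4T1M and 19 and 32 macrophage-gated cells fell short of 1000 UMIs and were left out. In the same Ly6 list, Ly6g, part of the GR1 antigen used for isolation, was called lower.

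Slfn5 and Isg20 were better resolved per cell. After thinning, 33.3% (21.1% to 47.5%) of interferon-stimulated cells had a Slfn5 UMI in 4T1P and 48.5% (41.5% to 55.6%) in 4T1M, against 3.41% and 12.7% of the other neutrophils and 5.48% and 4.26% of T or NK cells. For Isg20 the shares were 33.3% and 37.3%, against 8.06% and 12.4%. Before thinning, Slfn5 was found in 64.8% and 70.6% of interferon-stimulated cells, and Isg20 in 66.7% and 66.2%.

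Along the gate score, Slfn5 and Isg20 went up by steps that began below the threshold. Granule-low neutrophils were split at scores of 0.1%, 0.3%, 0.6%, 1% and 1.5%, which left 380, 108, 52, 28, 16 and 10 cells in 4T1P and 799, 411, 226, 102, 49 and 53 in 4T1M. Slfn5 had 22.3, 55.2, 177, 369, 909 and 967 CPM from the lowest to the highest step in 4T1P, and 74.6, 186, 435, 643, 853 and 1532 CPM in 4T1M. Isg20 went from 62.1 to 774 CPM and from 71.0 to 1112 CPM without a step down in either library. Ly6e went from 114 to 575 CPM without a step down in 4T1M, but had 34.9, 77.7, 189, 152, 325 and 161 CPM in 4T1P, the last on 5 UMIs. The top steps of 4T1P hold under 20 cells and their intervals are wide. Retnlg, a secreted resistin-like protein of neutrophils, went from 9359 to 1753 CPM at the fifth step and 4030 CPM at the last in 4T1P, and from 6960 to 1328 CPM at the last in 4T1M. Since a cell's score divides by its total, it shares that denominator with every level here.

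**Figure D4:**
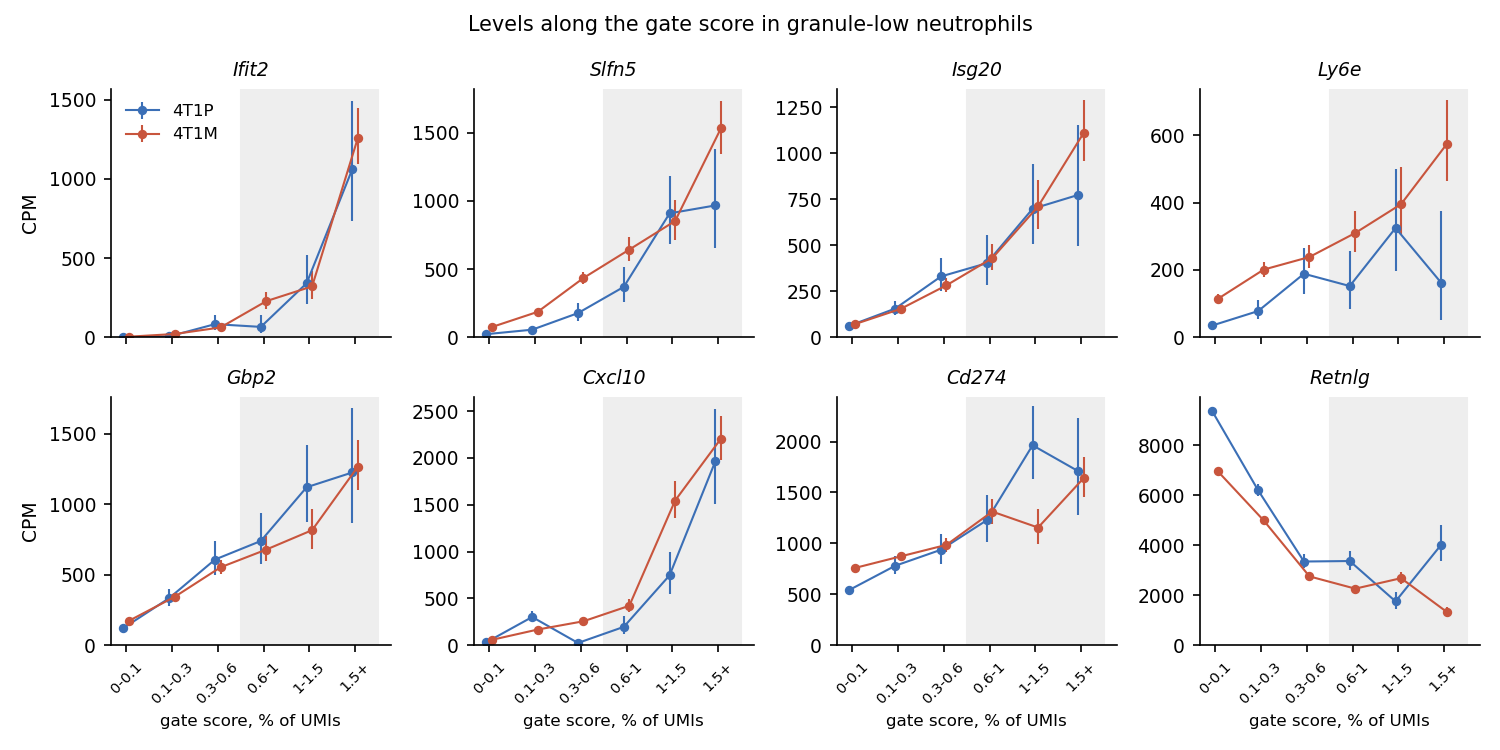
CPM of 8 genes outside the gate in granule-low neutrophils binned by gate score (% of UMIs), 4T1P in blue and 4T1M in red, with 95% Poisson counting intervals and the range of interferon-stimulated cells shaded. Slfn5, Isg20 and Gbp2 climb from the lowest bin on, Ifit2 and Cxcl10 are highest above 1%, and Retnlg is highest in the lowest bin but not lowest in the top bin of 4T1P; the 2 highest bins of 4T1P hold 16 and 10 cells.

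The genes lower in interferon-stimulated neutrophils included genes of the granule list, whose ratios shrank once the granule-rich cells were left out of the comparison. Of 9 granule genes counted, 6 were called lower against all other neutrophils and 2, Anxa1 and Padi4 (the latter on 1 and 4 UMIs), against granule-low cells. The list median moved from -2.62 to -0.81 in 4T1P and from -1.72 to -1.08 in 4T1M. Lcn2 (lipocalin 2, which binds bacterial iron carriers) had 758 CPM in interferon-stimulated cells of 4T1P against 4654 CPM, and 1045 CPM in those of 4T1M against 3209 CPM. Its log2 ratios of -2.62 and -1.62 became -1.68 and -0.85 against granule-low cells. A Lcn2 UMI was found in 63.0% and 57.8% of interferon-stimulated cells, against 67.0% and 66.2% of the other neutrophils. For Anxa1 the shares were 48.1% and 31.9%, against 57.3% and 46.4%. Anxa1, an anti-inflammatory lipid-binding protein, had 325 and 251 CPM against 2005 and 1170 CPM, log2 ratios of -2.63 and -2.22. Against granule-low cells the Anxa1 ratios were -1.5 and -1.08, and without the deepest 5% of neutrophils they were -1.27 and -1.37. Ly6g had 6 UMIs in 4T1P and 35 in 4T1M, 32.5 and 52.6 CPM against 330 and 250 CPM, log2 ratios of -3.35 (-4.80 to -2.22) and -2.25 (-2.78 to -1.77). Against granule-low cells the Ly6g ratios were -2.34 and -1.18, and without the deepest 5% they were -1.79 and -1.60.

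Retnlg was lower with either comparison, at 2940 and 2137 CPM against 7819 and 5901 CPM, log2 ratios of -1.41 (-1.54 to -1.29) and -1.47 (-1.54 to -1.39). Against granule-low cells they were -1.48 and -1.41. With each cell weighted equally the Retnlg ratio was -0.94 in 4T1P, under 2-fold, and -1.61 in 4T1M, and a Retnlg UMI was found in 64.8% and 59.3% of interferon-stimulated cells against 68.1% and 65.2% of the other neutrophils. Macrophage-gated cells, which should lack Retnlg, had 61.5 and 192 CPM. Spp1 (osteopontin) was lower likewise, with -1.53 and -1.62, as was Cd3d, on 1 and 3 UMIs. The ribosomal protein genes Rpl3 and Rpsa had log2 ratios between -1.42 and -1.02 and were called in both comparisons. They are given as single genes, and the ribosomal protein genes as a family were not summarized. Of the IFITM family, named for its induction by interferon, 0 of 4 genes were called higher. Ifitm3 had log2 ratios of 0.73 and 0.81, Ifitm1 of 0.25 and 0.25 and Ifitm2 of -0.11 and -0.10. Ifitm6 was called lower, at -2.88 and -1.73, which became -2.04 and -0.66 against granule-low cells. An Ifitm6 UMI was found in nearly equal shares of cells, 24.1% and 25.5% inside the gate and 24.7% and 25.6% of the other neutrophils. Single cells of the latter held up to 243 UMIs in 4T1P and 200 in 4T1M.

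Label genes of other neutrophil states were summed in the same cells. Il1a, Tnf and Il23a together had 1646 and 2890 CPM against 927 and 2356 CPM, log2 ratios of 0.83 in 4T1P and 0.29 in 4T1M with intervals above 0, and 0.68 and 0.18 against granule-low cells. Il23a alone had -1.05 (-2.95 to 0.35) in 4T1P, on 4 UMIs, and had 176 against 88.1 CPM in 4T1M, on 117 UMIs. Cxcr2, Hdc and G0s2 had ratios of 0.01 (-0.07 to 0.09) and 0.60 (0.56 to 0.64). Against granule-low cells these were -0.12 (-0.20 to -0.04) in 4T1P and 0.52 (0.48 to 0.56) in 4T1M, beside medians over all genes of -0.15 and -0.18 in that comparison. Retnlg, Prok2 and Wfdc17 had -0.70 and -0.85, and -0.83 and -0.88 against granule-low cells.

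The last comparison set 4T1M against 4T1P, the responding against the non-responding tumors, inside the gated cells. A sum over 78 genes of the interferon lists outside the gate was 14241 CPM in interferon-stimulated cells of 4T1P and 16001 CPM in those of 4T1M, a log2 ratio of 0.17 (0.11 to 0.23). The ratio depended on the threshold and the scaling: it was 0.056 (0.0026 to 0.11) with the gate at 0.4% and 0.32 (0.26 to 0.38) with edgeR's TMM factors. In the other neutrophils the same sum was 3024 and 4605 CPM, a log2 ratio of 0.61 (0.57 to 0.64). Of the 76 higher genes, 47 had a higher level in 4T1M than in 4T1P inside the gate, 11 of them with an interval above 0, and the median log2 ratio was 0.12. In the other neutrophils 74 of 76 were higher in 4T1M, 55 with an interval above 0, and the median was 0.49. The medians over all 3636 genes were 0.01 and 0.02. Inside the gate that median became 0.16 with TMM factors and 0.14 with DESeq2 size factors, so the counts there depend on the scaling too. The same threshold chose the gated cells of both libraries, so levels of genes that follow the gate are held alike by that choice, and the counts are given as a description.

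**Figure D5:**
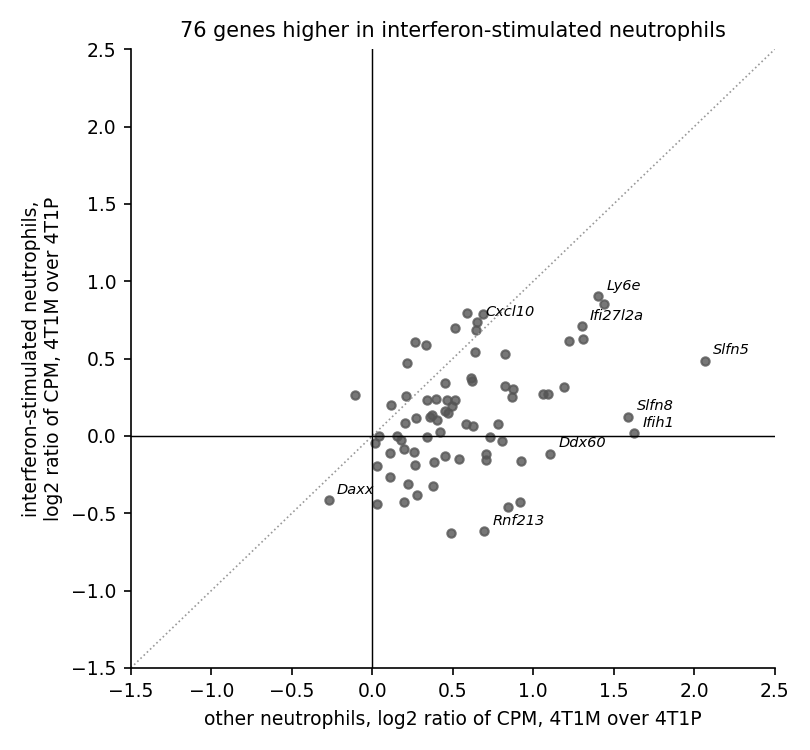
Log2 ratio of CPM in 4T1M over 4T1P for the 76 genes higher in interferon-stimulated neutrophils, in the other neutrophils (x axis) and in the interferon-stimulated cells (y axis), 1 point per gene, with a dotted line where both are equal. All but 2 points lie to the right of 0, and Slfn5, Ifih1 and Slfn8 lie far below the line.

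For Slfn5 the log2 ratio of 4T1M over 4T1P was 2.06 (1.74 to 2.40) in the other neutrophils and 0.49 (0.20 to 0.78) in interferon-stimulated cells. Ifih1 had 1.62 (1.23 to 2.04) and 0.02 (-0.38 to 0.43). Ly6e had 1.40 (1.14 to 1.68) and 0.90 (0.41 to 1.43), above 0 in both. Inside the gate, Cxcl10, Ifi27l2a, Ifit2, Oas3, Oasl1, Plac8 and Xaf1 were likewise higher in 4T1M with intervals above 0. Rnf213 and Smchd1 were lower on plain totals, with -0.62 (-1.07 to -0.14) and -0.44 (-0.80 to -0.07). TMM factors raised the median over all genes inside the gate from 0.01 to 0.16, so both upper limits depend on the scaling. Irf1, a factor induced by interferon γ, was lower in 4T1M inside the gate, -0.64 (-0.93 to -0.34), and Socs3 -0.98 (-1.30 to -0.66). Ratios of interferon-stimulated over other neutrophils were larger in 4T1P for 65 of the 76 genes. Whether these gaps exceed the spread between tumors cannot be told from 1 pooled library per condition, and condition and library cannot be told apart.

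The promoters of these genes were described in the same windows, 250 bases before to 50 bases after the RefSeq start. The interferon-stimulated response element, in the letters given above, was in the window of 22 of the 64 higher genes found in the table (34.4%), of 137 of the 2925 counted genes (4.68%) and of 3 of the 115 lower genes (2.61%). Over all 27025 genes of the table the share was 3.99%. The 76 higher genes from which those 64 come include 13 that reached the minimum of 50 UMIs only with the gated cells. Shares without such genes were not taken. A form of the gamma-activated sequence, TTC, 3 bases of any kind and GAA, reads the same on both strands. It was in 10.9% of windows of higher genes, 8.62% of those counted and 7.83% of those lower. Over all genes of the table its share was 9.55%. Of the gate genes Isg15, Rsad2, Ifit1, Ifit3 and Cmpk2, 4 of 5 windows held the former. Ifit2, Isg20, Oasl1, Irf7 and Ifi47 had no match, which says only that these letters are not in those windows.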

How the data were processed

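Each condition had 1 droplet library (10x Genomics), for which the authors deposited unnormalized UMI counts of genes in barcodes, aligned to mm10 (GRCm38). Cell Ranger 4.0.0 is named by the submitters' processing notes and the matrix header, whereas the methods name another version. The libraries held 2947 (4T1P) and 5004 (4T1M) barcodes with 21855657 and 24303957 UMIs. Of these 1726 and 3461 were retained. No doublet caller was run, and removal of the deepest cells was tried instead.

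UMIs were summed per class and library in Python 3.11.15 with scipy 1.17.1. Levels are CPM with exact Poisson intervals, shares have exact binomial (Clopper-Pearson) intervals and log2 ratios exact conditional intervals, with 0.5 UMIs added where a sum was 0. Intervals are at 95%, and limits for counts of 0 use 3 UMIs. Genes of the gate, of the neutrophil rule and of the granule rule were left out of the counts of called genes. As alternatives the totals were scaled with TMM (edgeR 4.0.16) or size factors (DESeq2 1.42.0). Other alternatives were a gate lacking 1 gene, thinning to 1000 UMIs, other thresholds and equal weight for each cell. Genes named are those of the gene lists and, outside them, up to 20 called higher and 20 called lower ranked on the lesser of their 2 absolute log2 ratios, if they reached 100 CPM in each library (in gated cells for higher, in other neutrophils for lower). Members and lists were chosen with earlier results of these data known. Coordinates are from GENCODE M21 and promoter windows from RefSeq (GRCm38.p6), matched by symbol. The methods were tested on simulated data, which were Poisson sums per gene. That simulation leaves out UMIs that gather in single cells, so it does not show how the intervals behave for such genes. Some genes of the lists are not reported here.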

Additional observations from a re-analysis of the deposited data

Results flagged for a closer look

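Cxcl3, a neutrophil-attracting chemokine, and Vegfa, an angiogenic factor, had ratios of opposite sign in the libraries when scaled to plain totals. Cxcl3 had a log2 ratio of interferon-stimulated over other neutrophils of 0.74 (0.60 to 0.87) in 4T1P and -0.12 (-0.20 to -0.05) in 4T1M. Vegfa had 0.86 (0.41 to 1.29) and -0.40 (-0.73 to -0.09). In 4T1M the Cxcl3 ratio was -0.012 (-0.087 to 0.063) with edgeR's TMM factors and 0.061 (-0.014 to 0.14) with DESeq2 size factors, so that its direction there was lost or turned, and the Vegfa ratio was -0.29 (-0.62 to 0.017) and -0.22 (-0.54 to 0.090). The difference between the libraries was not tested, since each condition had 1 pooled library. Of 224 named genes, 16 had ratios of opposite sign, and in these 2 alone both intervals excluded 0 on plain totals.

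Signal of the gate also appeared outside the cells compared. Among neutrophils above the mitochondrial limit, which were not used otherwise, 12 of 129 in 4T1P (9.30%, exact binomial interval 4.90% to 15.7%) and 20 of 176 in 4T1M (11.4%, 7.08% to 17.0%) passed the same gate. Of macrophage-gated cells, 31 of 814 in 4T1M (3.81%, 2.60% to 5.36%) reached the threshold, above 5 of 646 in 4T1P (0.774%, 0.252% to 1.80%).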

How the results depend on the processing

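No paired analysis was possible because each condition had 1 library, and for the same reason no replicate could be left out. The share of interferon-stimulated neutrophils was set mainly by the threshold. At 0.4% it was 12.9% in 4T1P and 20.2% in 4T1M, at 1.0% it was 4.25% and 6.05%, and with the gate read after thinning to 1000 UMIs it was 15.1% in 4T1M. It stayed inside its interval under the other settings tried (a mitochondrial limit of 5%, S100a8 and S100a9 of at least 3%, at least 1000 UMIs, without the deepest 5% of neutrophils), and was higher in 4T1M under each setting. The count of higher genes was between 67 and 93 except with the minimum set to 10 UMIs (128) or 200 UMIs (26). The count of lower genes depended on more choices: 82 at a threshold of 0.4%, 238 at 1.0%, 33 without the deepest 5% of neutrophils, 88 against granule-low cells, 536 and 34 with minimums of 10 and 200 UMIs, and, in settings added after the data were seen, 82 with Isg15 left out of the gate and 91 with each cell weighted equally. The log2 ratio of 4T1M over 4T1P of the interferon lists in gated cells was 0.056 at a threshold of 0.4%, 0.32 with edgeR's TMM factors and 0.31 with DESeq2 size factors, where the median over all genes went from 0.01 to 0.16 and 0.14. TMM factors moved the median ratio of all genes over the other neutrophils from -0.09 to -0.21 in 4T1P and from -0.16 to -0.05 in 4T1M, and DESeq2 size factors to -0.12 and 0.03. Of 432 values of 18 single genes under the alternatives, 335 stayed inside their interval, 97 moved outside it and 0 changed direction after a call. Except where the setting itself removes genes or cells, the cause was not tested.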
